A study of Mus musculus with 3 samples.

Results

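The 33 genes described here encode the proteins that take up fatty acids, join them to coenzyme A and shorten them by beta-oxidation, together with regulators of that pathway. They were taken by gene symbol, and each of the 33 symbols stood once among the 55357 genes of the count files and had at least 1 UMI (unique molecular identifier, a count of 1 captured transcript) in both libraries. By role they are 7 uptake and activation genes, 5 acyl-CoA dehydrogenases, 3 electron transfer flavoprotein genes, 8 enzymes of the hydration, isomerisation, oxidation and thiolysis steps, 2 thioesterases, 4 peroxisomal enzymes and 4 regulators.

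Fatty acids entering a cell are trapped as acyl-CoA by fatty acid transport proteins (Slc27a genes) and long-chain acyl-CoA synthetases (Acsl genes). Long-chain acyl-CoA then crosses into mitochondria as acylcarnitine, a step that Cpt1a limits. In the matrix an acyl-CoA dehydrogenase opens each round and passes electrons to the electron transfer flavoprotein, and hydratase, hydroxyacyl-CoA dehydrogenase and thiolase steps release acetyl-CoA. Peroxisomes shorten very long and branched chains with enzymes of their own, and the nuclear receptors Ppara and Ppard, with the coactivator Ppargc1a, are known to raise many of these genes in liver and muscle.

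The data were droplet single-cell 3′ RNA counts of tumours grown in female mice of 8 to 10 weeks from 4T1, a mouse mammary carcinoma line. The sgVC library came from tumours of the 4T1-sgVC line, labelled wild type, and the sgCPT1A library from tumours of the 4T1-sgCPT1A line, labelled as a knockdown of Cpt1a. The tumours of both groups were digested whole, with no sort described, after the mice had been housed for 8 days. The labels attach the guide to the tumour line and not to the host, whose strain they do not name, and they do not say whether a line is 1 clone or how many animals were pooled. Of the 3 samples listed, another of sgCPT1A had no separate counts used here, and whether its cells are part of the sgCPT1A counts is not known.

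With 1 library per group there was no test. Each level below is the summed UMIs of a gene in a cell class, per 1000000 UMIs of that class (CPM), with an exact Poisson 95% interval, and each difference is the log2 ratio of the sgCPT1A CPM over the sgVC CPM, with an exact 95% interval. These intervals cover counting error only, not the spread between cells or between tumours. Because the assay counts 3′ ends, CPM values of different genes can be set side by side without a length correction. A gene counts as measured in a class where the 2 libraries together gave it at least 20 UMIs, and as higher or lower past 1.5-fold.

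The sgVC library held 155948212 UMIs in 9890 barcodes and the sgCPT1A library 35557125 UMIs in 7198 barcodes, with 18 barcode sequences in common. Clusters were named from marker genes, and the 6 classes that held 50 or more cells per library were compared: neutrophil-like (1796 sgVC and 5124 sgCPT1A cells), monocyte/macrophage-like (1408 and 329), T-like (934 and 582), fibroblast-like (400 and 514), dendritic-like (217 and 65) and pericyte or smooth muscle-like (51 and 73). NK cells were not split from the T-like class, although clustering at Leiden resolution 0.5 or 2 set 80 sgVC and 32 sgCPT1A cells apart as NK-like. Tumour/epithelial-like cells numbered 4473 in sgVC and 41 in sgCPT1A, and 30 of those 41 lay in a cluster that held 13 sgVC cells, so they were not compared. Cpt1a itself stood at 17.4 CPM in the sgVC tumour-like cells and at 31.2 CPM (24 UMIs) in the 41 sgCPT1A cells. Of those 24 UMIs, 21 were in the cluster with 30 of the 41 cells. That cluster was named from all 12 tumour/epithelial markers, the other tumour/epithelial-like clusters from 4. Whether its cells belong to the 4T1-sgCPT1A line was not tested. A 3′ count can also include edited transcripts, so this Cpt1a value checks neither the label nor the depletion.

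The levels of the 33 genes separated the neutrophil-like cells from every other class. Summed over the 16 mitochondrial enzymes (dehydrogenases, electron transfer flavoprotein and the later steps), neutrophil-like cells stood at 136 CPM (122 to 150) in sgVC and 62.4 CPM (58.3 to 66.7) in sgCPT1A. The next lowest of the compared classes, the monocyte/macrophage-like cells, had 725 CPM in sgVC against 588 CPM in sgCPT1A. The highest was the pericyte or smooth muscle-like class, at 1171 and 1254 CPM, close to the 1136 CPM of sgVC tumour-like cells. For uptake and activation there was no such gap to the T-like cells. The 7 genes summed to 111 and 131 CPM in neutrophil-like cells, the lowest in sgVC, against 117 and 97.9 CPM in T-like cells, the lowest in sgCPT1A. The other compared classes ran from 123 to 217 CPM in sgVC and from 126 to 257 CPM in sgCPT1A. The sum over the 4 peroxisomal enzymes was lowest in neutrophil-like cells, at 21.9 and 23.6 CPM, and highest in dendritic-like cells, at 139 and 157 CPM.

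**Figure D1:**
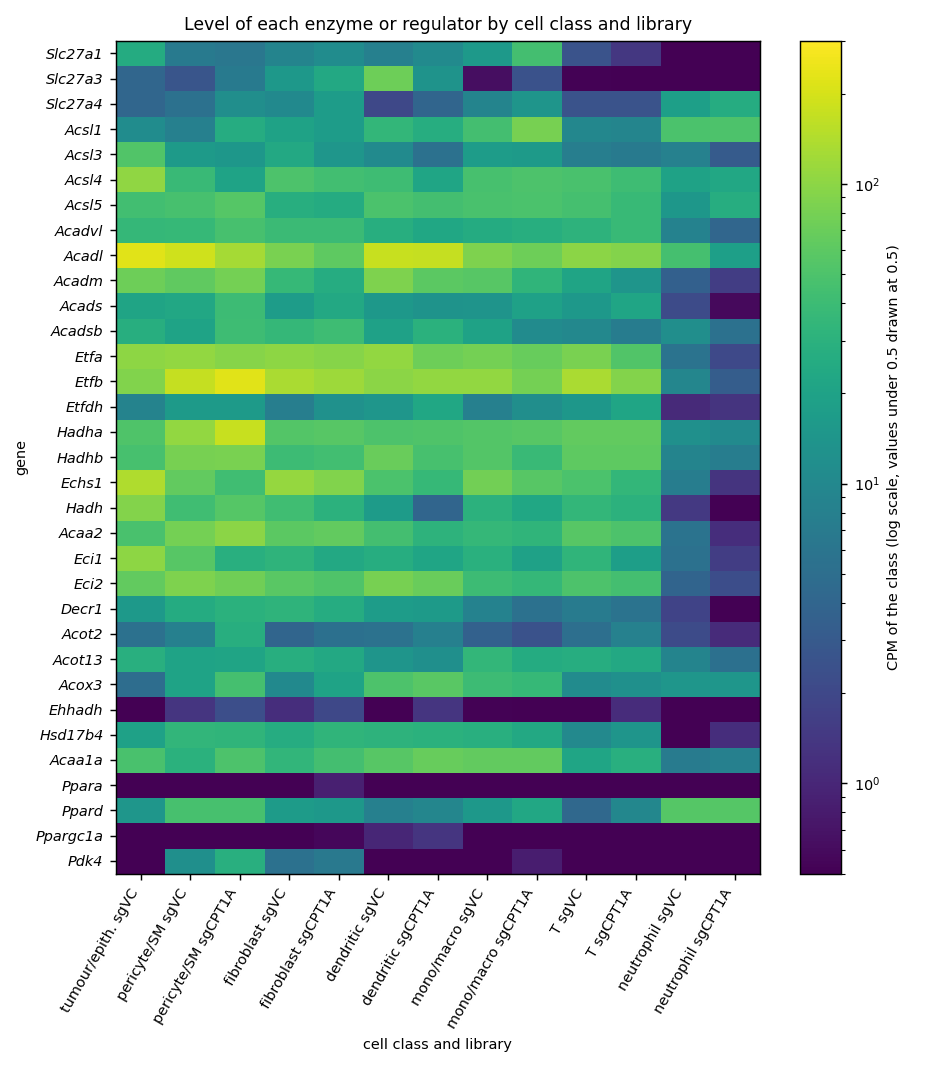
Level of each of the 33 genes (rows) in each cell class and library (columns) in CPM on a log colour scale, with values under 0.5 CPM drawn at 0.5. The 2 neutrophil columns at the right are darkest for the mitochondrial enzymes from Acadvl to Decr1 but bright for Acsl1 and Ppard.

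The uptake and activation genes were led by different classes. Slc27a3, a transport protein with acyl-CoA synthetase activity, reached 72.4 CPM (61.1 to 85.3) in sgVC dendritic-like cells, 4.73 times its next class, the fibroblast-like cells at 15.3 CPM. Of its 144 UMIs there, 136 were in the dendritic cluster led by Ccl22, Ccr7 and Fscn1 (cluster 17), at 198 CPM against 6.15 CPM in the other dendritic cluster (13). Slc27a1, the related insulin-responsive transporter of muscle and fat, was highest in sgVC tumour-like cells at 25.9 CPM (25.0 to 26.8) and next in monocyte/macrophage-like cells at 15.8 CPM. In the sgCPT1A library the monocyte/macrophage-like cells led for Slc27a1 at 44.3 CPM (36.2 to 53.5), and neutrophil-like cells held 1 and 6 UMIs of it in all.

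Slc27a4 was the transporter of the neutrophil-like cells. It stood there at 18.7 CPM (13.9 to 24.5) in sgVC and 26.0 CPM (23.4 to 28.8) in sgCPT1A, above the fibroblast-like cells at 10.3 and 17.4 CPM, and the counting intervals did not overlap in either library. Among the synthetases, Acsl1, the main isoform of fat, heart and activated macrophages, was highest in sgVC neutrophil-like cells at 48.8 CPM (40.9 to 57.7), an interval that overlaps the 44.1 CPM of monocyte/macrophage-like cells. Acsl4, which prefers arachidonic acid, and Acsl3, which works at lipid droplets, were highest in sgVC tumour-like cells, at 104 and 52.8 CPM. Acsl5, a synthetase of the mitochondrial outer membrane and endoplasmic reticulum, lay between 27.5 and 49.3 CPM in the 6 sgVC classes other than neutrophil-like cells, where it stood at 14.7 CPM.

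Acadl was the most abundant of the 5 acyl-CoA dehydrogenases in every class of both libraries. This long-chain enzyme stood at 223 CPM (220 to 225) in sgVC tumour-like cells, 191 CPM (161 to 226) in pericyte or smooth muscle-like cells and 176 CPM (158 to 195) in dendritic-like cells. T-like, monocyte/macrophage-like and fibroblast-like cells lay at 98.6, 87.7 and 82.7 CPM, and neutrophil-like cells at 45.9 CPM (38.3 to 54.6). Acadm, for medium chains, was highest in sgVC dendritic-like cells at 87.5 CPM (75.0 to 102) and stood at 3.59 CPM in neutrophil-like cells. Acadvl, for very long chains, varied less, from 25.5 to 39.6 CPM outside the neutrophil-like class in sgVC. The short-chain enzyme Acads and the branched-chain enzyme Acadsb stayed at or under 35.1 CPM in the compared classes of sgVC and 41.5 CPM in those of sgCPT1A.

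Hadha and Hadhb, the 2 subunits of the trifunctional protein that carries out the last steps for long chains, were highest in sgVC pericyte or smooth muscle-like cells at 106 CPM (83.6 to 132) and 81.4 CPM (62.1 to 105). The matrix hydratase Echs1, the short-chain hydroxyacyl-CoA dehydrogenase Hadh and the isomerase Eci1 were highest in sgVC tumour-like cells, at 139, 90.8 and 100 CPM. Etfb was the most abundant of the 3 electron transfer genes in fibroblast-like cells of both libraries, at 135 and 119 CPM, while the membrane-bound oxidoreductase Etfdh, which hands the electrons to ubiquinone, stood at 16.4 CPM or less in fibroblast-like and pericyte or smooth muscle-like cells.

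Hadha and Hadhb start next to each other on opposite strands of chromosome 5 (GRCm38; Hadha 30118304 to 30155162, minus strand; Hadhb 30155248 to 30184593, plus strand). Of the 85 bases between these GENCODE starts, the 68 that lie in the RefSeq promoter windows of both genes are shown, at chr5:30155163-30155230 on the plus strand, because the start regions of these subunits of 1 complex share them. Capitals mark the GC box letters GGGCGG.

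Hadha and Hadhb shared start region: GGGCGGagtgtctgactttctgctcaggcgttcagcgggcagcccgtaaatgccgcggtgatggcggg

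The ratios of the pair were nearly equal in neutrophil-like cells (−0.22 for Hadha and −0.24 for Hadhb), T-like cells (0.02 and −0.02) and fibroblast-like cells (0.10 and 0.08). They were less alike, with no test of the difference between the genes, in monocyte/macrophage-like cells (0.08, interval −0.21 to 0.35, and −0.51, interval −0.85 to −0.19), dendritic-like cells (0.01 and −0.58) and pericyte or smooth muscle-like cells (0.72, interval 0.34 to 1.11, and 0.02, interval −0.45 to 0.51).

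RefSeq promoter windows (GRCm38.p6, 250 bases before to 50 after each start) were found for 29 of the 33 genes. Searched on both strands, GGGCGG was in 22 of the 29 (75.9%) and in 35.7% of all 32851 promoters of that length. A member counted if any window under its symbol held the letters. The share of all was taken over single windows, of genes measured here or not, so these shares are not the same measure. AGGTCA, the core motif of nuclear receptors such as the PPARs, was in 3 of the 29 (10.3%: Acadm, Acadvl and Echs1) and in 16.3% of all promoters, and its direct repeat with 1 base between the copies was in 0 of the 29 and in 13 of all promoters. Each direct repeat also holds AGGTCA. Acadm, which of these 3 had the highest level in dendritic-like cells, is shown with the 250 bases before its RefSeq start, at chr3:153944644-153944893 on the minus strand. Capitals mark AGGTCA read on the opposite strand (TGACCT).

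Acadm promoter: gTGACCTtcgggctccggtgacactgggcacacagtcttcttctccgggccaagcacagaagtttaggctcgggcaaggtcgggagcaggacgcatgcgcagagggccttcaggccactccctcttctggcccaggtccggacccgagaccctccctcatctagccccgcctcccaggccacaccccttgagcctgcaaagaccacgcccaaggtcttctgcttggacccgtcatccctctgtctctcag

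The 4 regulators were split by class. Ppard was highest in neutrophil-like cells, at 55.2 CPM (46.9 to 64.7) in sgVC and 54.9 CPM (51.0 to 59.0) in sgCPT1A, with pericyte or smooth muscle-like cells next at 46.1 and 46.8 CPM and overlapping intervals. With each cell thinned to 1000 UMIs, a Ppard UMI was seen in 5.19% of 1465 sgVC and 5.68% of 4663 sgCPT1A neutrophil-like cells, against 0.233% of 857 and 0.912% of 548 T-like cells. Without thinning the same cells gave 8.33% and 13.8% in the neutrophil-like class and 1.87% and 5.84% in the T-like class, and 331 and 461 shallower neutrophil-like cells were left out. Ppara and Ppargc1a were barely seen: the most UMIs in any compared class were 11 for Ppara and 7 for Ppargc1a, both in sgCPT1A fibroblast-like cells.

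Pdk4, the kinase that turns off pyruvate dehydrogenase when fatty acids are burnt, was found in stromal cells. Pericyte or smooth muscle-like cells held it at 12.2 and 28.1 CPM and fibroblast-like cells at 5.49 and 6.62 CPM, although 22 of the 33 UMIs of the sgVC fibroblast-like cells came from 1 cell. Neutrophil-like cells had 0 UMIs; taking 3 counts as the limit of a count of 0, this allows up to 1.08 CPM in sgVC and 0.219 CPM in sgCPT1A. T-like and dendritic-like cells also had 0 in both libraries.

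The peroxisomal enzymes had their own order. Acox3, the oxidase for branched chains, was highest in dendritic-like cells at 50.8 CPM (41.4 to 61.7) in sgVC and 57.8 CPM (41.8 to 77.8) in sgCPT1A, and stood at 4.88 CPM in sgVC tumour-like cells, the lowest of the 7 sgVC classes. Acaa1a, the peroxisomal thiolase, stood at 64.7 CPM in monocyte/macrophage-like cells of both libraries. Its near-identical copy Acaa1b can share reads with it, as Acot1 can with the thioesterase Acot2, so both values are uncertain. Ehhadh, the peroxisomal bifunctional enzyme of dicarboxylic acids, had at most 25 UMIs in any compared class, while Hsd17b4, the bifunctional enzyme for branched chains, lay between 10.1 and 33.9 CPM in the sgVC classes outside neutrophil-like cells. Acot13, a thioesterase found at mitochondria, was highest in monocyte/macrophage-like cells, at 34.4 and 25.5 CPM.

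Between the libraries, the neutrophil-like cells had the most members past 1.5-fold, although with at least 100 UMIs asked of a member 3 passed. Of the 23 members measured there, 13 were lower in sgCPT1A past 1.5-fold, where 35.7% of 9196 measured genes were lower, and 1 was higher, where 17.5% of all were higher. The median log2 ratio of the 23 was −0.80 and that of all measured genes −0.30. Taken relative to the median of all genes, 11 members were lower and 3 higher, with no such count made over all genes. The difference divided by role: all 4 measured acyl-CoA dehydrogenases were lower, with a median of −1.15, the 6 measured enzymes of the later steps had a median of −1.27, and the 5 measured uptake and activation genes a median of 0.25.

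Acadl stood at 45.9 CPM in sgVC and 18.7 CPM (16.5 to 21.1) in sgCPT1A neutrophil-like cells, a log2 ratio of −1.30 (−1.61 to −0.98). Acadsb stood at 11.8 and 5.40 CPM, a ratio of −1.13 (−1.74 to −0.49), and Acadvl at 8.61 and 4.09 CPM, a ratio of −1.07 (−1.79 to −0.32). In none of these 3 do the counting intervals of the libraries overlap. Etfb, a subunit of the flavoprotein that takes electrons from them, stood at 9.33 and 3.28 CPM, a ratio of −1.51 (−2.23 to −0.75). Echs1, at 7.53 and 1.31 CPM (21 and 18 UMIs), had a ratio of −2.52 (−3.51 to −1.54), and Acaa2, the mitochondrial thiolase, stood at 5.74 and 1.17 CPM on 16 UMIs each. Eci1, Etfa, Acadm, Eci2 and Acot2 were lower too, at 5.74 CPM or less in either library. Acsl3 was the lower gene among the synthetases, at 8.25 and 3.14 CPM (ratio −1.39, −2.16 to −0.60), and the thioesterase Acot13 stood at 8.97 and 5.33 CPM (−0.75, −1.42 to −0.03).

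Other members had close levels in the class taken as a whole. Ppard (ratio −0.01, −0.26 to 0.25), Acox3 at 14.3 CPM in both libraries (−0.50 to 0.52) and Acsl1 at 48.8 and 50.7 CPM (0.06, −0.21 to 0.33) had intervals that include 0. Hadha stood at 12.6 and 10.8 CPM and Hadhb at 8.97 and 7.59 CPM, with overlapping intervals. Acsl5 was the higher gene, at 14.7 CPM (10.6 to 20.0) in sgVC and 26.6 CPM (24.0 to 29.5) in sgCPT1A, a ratio of 0.86 (0.39 to 1.36). Slc27a4 was higher by less than 1.5-fold (0.48, 0.06 to 0.93). When cells were classed by their own markers in place of their cluster, 24 of 29 measured members were lower (63% of 12789 genes) and 4 higher (21.5%). The median was then −2.59 against −1.48 for all genes, Acadl stood at −2.90 on 1602 sgVC UMIs (128 by cluster), and Acsl5 turned to −0.40.

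**Figure D2:**
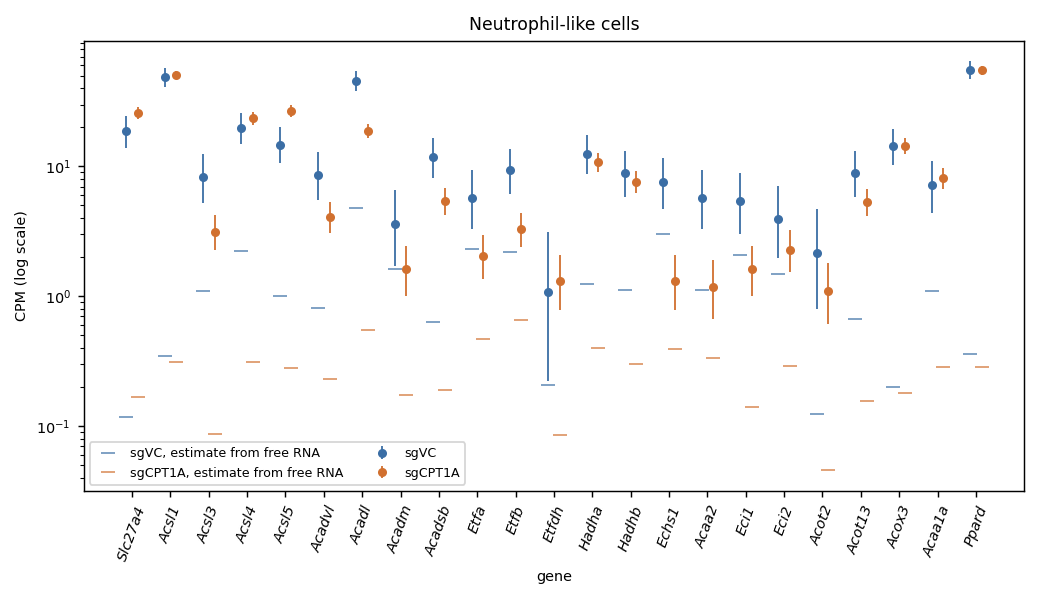
CPM (log scale) in neutrophil-like cells of each member with at least 20 UMIs there, for sgVC (blue) and sgCPT1A (orange), with 95% Poisson intervals. Short bars give the CPM estimated to come from free RNA of other cells: for Acadl 4.76 of 45.9 CPM in sgVC and 0.551 of 18.7 CPM in sgCPT1A.

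Free RNA, the make-up of the neutrophil clusters and depth moved with this difference. Tumour/epithelial markers summed to 56.7 CPM in sgVC and 19.4 CPM in sgCPT1A neutrophil-like cells, with 3 of the 12 markers at 0 in both. Free RNA was put at 2.37% of the sgVC UMIs from Krt8 and Krt18 and at 0.899% of the sgCPT1A UMIs from collagen genes. With it subtracted, 11 members were lower (32.1% of 9189 genes) and 1 higher (19.3%), the median was −0.49 against −0.22 for all genes, and the Acadl ratio was −1.20. For Echs1, Etfa and Eci1 the estimate reached 3.02 of 7.53, 2.29 of 5.74 and 2.09 of 5.38 CPM in sgVC. The median UMIs per neutrophil-like cell were 1460.5 in sgVC and 2628.5 in sgCPT1A, and the part of this depth was not tested.

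The 4 neutrophil clusters were filled unequally, with 1359, 253, 74 and 110 sgVC and 383, 1135, 1883 and 1723 sgCPT1A cells in clusters 0 to 3. Acadl was lower in sgCPT1A within cluster 0 (38.9 and 16.9 CPM; −1.21, −2.18 to −0.35) and within cluster 1 (92.2 and 28.4 CPM; −1.70, −2.23 to −1.15). In clusters 2 and 3 its sgVC values rest on 3 and 2 UMIs. Within cluster 0 alone 5 of 13 measured members were lower (29.7% of 5314 measured genes) and 0 higher (9.41%). Their median there was −0.14, above the −0.22 of all genes. Acadm, Etfa, Etfb, Echs1, Acaa2, Eci1, Eci2 and Acot2, lower in the class, had too few UMIs to be measured in cluster 0. The members measured there are thus a different set, and this median cannot be set beside that of the class. Acsl5 stood at 15.7 and 15.6 CPM in cluster 0. Acsl5 was highest in cluster 2, which held the most sgCPT1A cells, at 40.3 CPM (35.1 to 46.1).

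Lower values in sgCPT1A neutrophil-like cells were not limited to fatty acid enzymes. Of all 9196 measured genes 35.7% were lower and 17.5% higher, with a median of −0.30. Of 14 measured mitochondrial import, channel and chaperone genes 13 were lower (median −0.96), among them Hspd1, the matrix chaperonin, at 15.4 and 4.38 CPM. Of 13 measured tricarboxylic acid (TCA) cycle genes 7 were lower (median −0.84), with Mdh2 at 106 and 39.1 CPM but citrate synthase, Cs, at 31.6 and 30.1 CPM. The 5 measured carnitine shuttle genes went both ways: Cpt1a (7.89 and 15.9 CPM) and Crat, the carnitine acetyltransferase (6.10 and 11.8 CPM), were higher and Slc25a20, the carnitine carrier, stood at 33 and 27.4 CPM.

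In monocyte/macrophage-like cells, 3 of 6 measured uptake and activation genes were higher in sgCPT1A, and 4 mitochondrial enzymes were lower. Of 28 members measured, 4 were higher (16.5% of all 11302 measured genes) and 4 lower (22.3% of all), shares no larger than those of all genes, and the median was −0.16 against −0.07. Relative to the median of all genes, 6 were higher and 2 lower, with no such count made over all genes. Slc27a1 stood at 15.8 CPM (13.4 to 18.5) and 44.3 CPM (36.2 to 53.5), a ratio of 1.49 (1.12 to 1.86). Acsl1 stood at 44.1 CPM (40.0 to 48.5) and 80.2 CPM (69.2 to 92.4), a ratio of 0.86 (0.61 to 1.11). Slc27a4 (8.98 and 14.2 CPM; 0.66, 0.04 to 1.25) and Ppard (15 and 23.4 CPM; 0.64, 0.16 to 1.09) were the other higher members.

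The lower members were enzymes of the matrix. Acadm stood at 56.7 CPM (52.0 to 61.7) and 33 CPM (26.1 to 41.1), a ratio of −0.78 (−1.14 to −0.44), and Acadsb at 19.9 and 10.9 CPM (−0.88, −1.53 to −0.28). Eci1, which moves double bonds into place for oxidation, stood at 28.8 and 19.2 CPM (−0.59, −1.07 to −0.13). Decr1, the dienoyl-CoA reductase, stood at 8.46 and 5.43 CPM on 81 and 13 UMIs, with an interval that includes 0 and a ratio of 0.082 as a mean over cells. Hadha (53.9 and 56.8 CPM), Acadvl (25.5 and 27.6 CPM) and Acaa1a did not differ beyond counting error.

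The mix of the 2 monocyte/macrophage-like clusters also differed: cluster 8, led by Pf4, C1qc and Arg1, held 684 sgVC and 243 sgCPT1A cells, and cluster 9, led by Ccl24 and MHC class II genes, 724 and 86. Within cluster 8 Slc27a1 stood at 31.6 and 59.0 CPM and Acsl1 at 40.6 and 99.7 CPM (1.30, 0.96 to 1.63). Within cluster 9 Slc27a1 stood at 7.36 and 8.58 CPM (0.22, −1.30 to 1.45, on 6 sgCPT1A UMIs) and Acsl1 at 45.9 and 32.9 CPM (−0.48, −1.16 to 0.13). Acsl3 went opposite ways, at −1.25 in cluster 8 and 1.19 in cluster 9. Acadm was lower within both clusters (−0.54 and −0.80), whereas Eci1 stood at 21.0 and 19.5 CPM in cluster 8 and 33 and 18.6 CPM in cluster 9. Neutrophil markers summed to 922 CPM in sgVC and 3232 CPM in sgCPT1A in the class, all 10 detected. Plasma cell markers, led by Jchain, summed to 69.1 and 1245 CPM (0 of 6 at 0), B cell markers to 40.4 and 236 CPM (0 of 7 at 0), plasmacytoid dendritic markers to 128 and 464 CPM (0 of 8 at 0) and fibroblast markers to 97.1 and 374 CPM (1 and 0 of 8 at 0). Their part in the values was not tested; Acsl1 in sgCPT1A neutrophil-like cells stood at 50.7 CPM and Slc27a1 at 0.438 CPM.

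**Figure D3:**
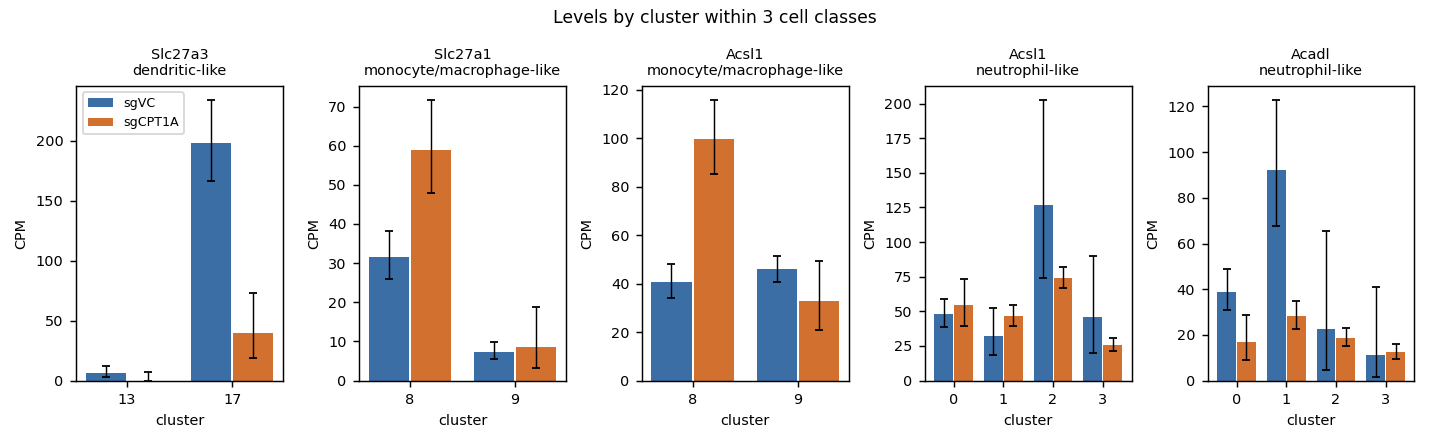
CPM by cluster (bars, from 0) of 4 genes in the dendritic-like, monocyte/macrophage-like and neutrophil-like clusters of both libraries, with 95% Poisson intervals. Slc27a1 stands at 31.6 and 59.0 CPM in cluster 8 and at 7.36 and 8.58 CPM in cluster 9, and Slc27a3 stands at 198 and 39.8 CPM in cluster 17.

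Outside the member list, 3 of 5 measured uptake and binding genes and 2 of 5 measured PPAR targets were higher in the same cells, and 0 of either list lower. Of all 11302 measured genes 16.5% were higher and 22.3% lower, with a median of −0.07. Lpl, the lipoprotein lipase, stood at 16 and 124 CPM, Cd36, a fatty acid receptor, at 14.0 and 52.6 CPM, and Plin2, the lipid droplet coat protein and a PPAR target, at 546 and 1247 CPM. Of 16 import, channel and chaperone genes 13 were lower (median −0.77), and of 17 TCA cycle genes 7 were lower (median −0.54), including Idh2 at 70.1 and 27.1 CPM. All 3 measured ketone body genes were lower, with Acat1, the acetoacetyl-CoA thiolase, at 59.0 and 22.1 CPM.

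In dendritic-like cells 2 of 27 measured members were higher (15.9% of all 7977 measured genes) and 4 lower (19.3%), with a median of −0.20 against −0.04. Slc27a3 had the ratio farthest from 0 of the measured members of all compared classes, apart from Echs1 in neutrophil-like cells: 72.4 CPM on 144 UMIs in 46 of 217 sgVC cells, and 13.4 CPM (6.44 to 24.7) on 10 UMIs in 5 of 65 sgCPT1A cells, a log2 ratio of −2.43 (−3.52 to −1.51). Within cluster 17 it stood at 198 CPM (166 to 234) and 39.8 CPM (19.1 to 73.3), and in cluster 13 it had 8 and 0 UMIs. Cluster 17 held 87 of 217 sgVC and 25 of 65 sgCPT1A dendritic-like cells, so the difference was measured within that cluster. Acsl4 was lower, at 40.7 and 21.5 CPM (−0.92, −1.80 to −0.14), and Hadh stood at 16.6 CPM (33 UMIs) and 4.03 CPM (3 UMIs). Acadsb stood at 19.6 and 29.6 CPM with an interval that includes 0 and a ratio of −0.21 as a mean over cells, and Acadl at 176 and 171 CPM. With at least 500 genes asked of each cell, 6 of 27 members were lower (19.8% of 8536 genes) and 0 higher (18.1%).

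In T-like cells 2 of 26 measured members were higher (14.7% of all 10413 measured genes) and 2 lower (13.9%), with a median of −0.18 against −0.01. Eci1 stood at 32.5 CPM (27.1 to 38.7) and 17.9 CPM (13.7 to 22.9), a ratio of −0.86 (−1.32 to −0.42). Etfa stood at 82.3 CPM (73.6 to 91.9) and 52.5 CPM (45.2 to 60.6), a ratio of −0.65 (−0.92 to −0.38). Its partner subunit Etfb stood at 134 and 90.8 CPM, under 1.5-fold, and Etfdh at 14.7 and 21.6 CPM in the other direction (0.55, 0.04 to 1.07). Ppard was higher on few counts, 17 and 34 UMIs, at 4.39 and 9.64 CPM (1.14, 0.26 to 2.07). Cells with a UMI of the NK receptors Ncr1 or Klrb1c were 64 of 934 and 33 of 582, and NK markers summed to 2945 and 1265 CPM (1 and 0 of 8 at 0). Neutrophil markers summed to 314 and 2386 CPM (0 of 10 at 0), and the part of both lists was not tested. Free RNA was put at 1.71% and 9.98% of the class's UMIs, and with it subtracted 3 members were higher (13.2% of all genes) and 5 lower (16.7%).

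In fibroblast-like cells, which had the highest median UMIs per cell of the compared classes (14586 and 24472.5), 5 of 31 measured members were higher (16.1% of all 13239 measured genes) and 1 lower (13.5%), with a median of −0.02 for the members and for all genes. Acox3 stood at 10.5 CPM (8.06 to 13.4) and 20.3 CPM (17.8 to 22.9), a ratio of 0.95 (0.55 to 1.37). Slc27a4 (10.3 and 17.4 CPM; 0.75, 0.34 to 1.18), Slc27a3 (15.3 and 23.7 CPM; 0.63, 0.29 to 0.99) and Etfdh (7.65 and 12.7 CPM; 0.73, 0.24 to 1.23) were higher with intervals above 0, and Ehhadh stood at 7 and 25 UMIs. As a mean over cells, the ratios of Slc27a3 and Slc27a4 were 0.15 and 0.06. Acsl3 was the lower member, at 23.5 and 14.4 CPM (−0.70, −1.03 to −0.37). Acadl (82.7 and 61.3 CPM), Acadm, Hadh, Eci1 and Echs1 were lower by less than 1.5-fold, each with an interval below 0, while Acads (17.3 and 23.6 CPM), Acaa1a and Hsd17b4 were higher by less than 1.5-fold, each with an interval above 0.

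**Figure D4:**
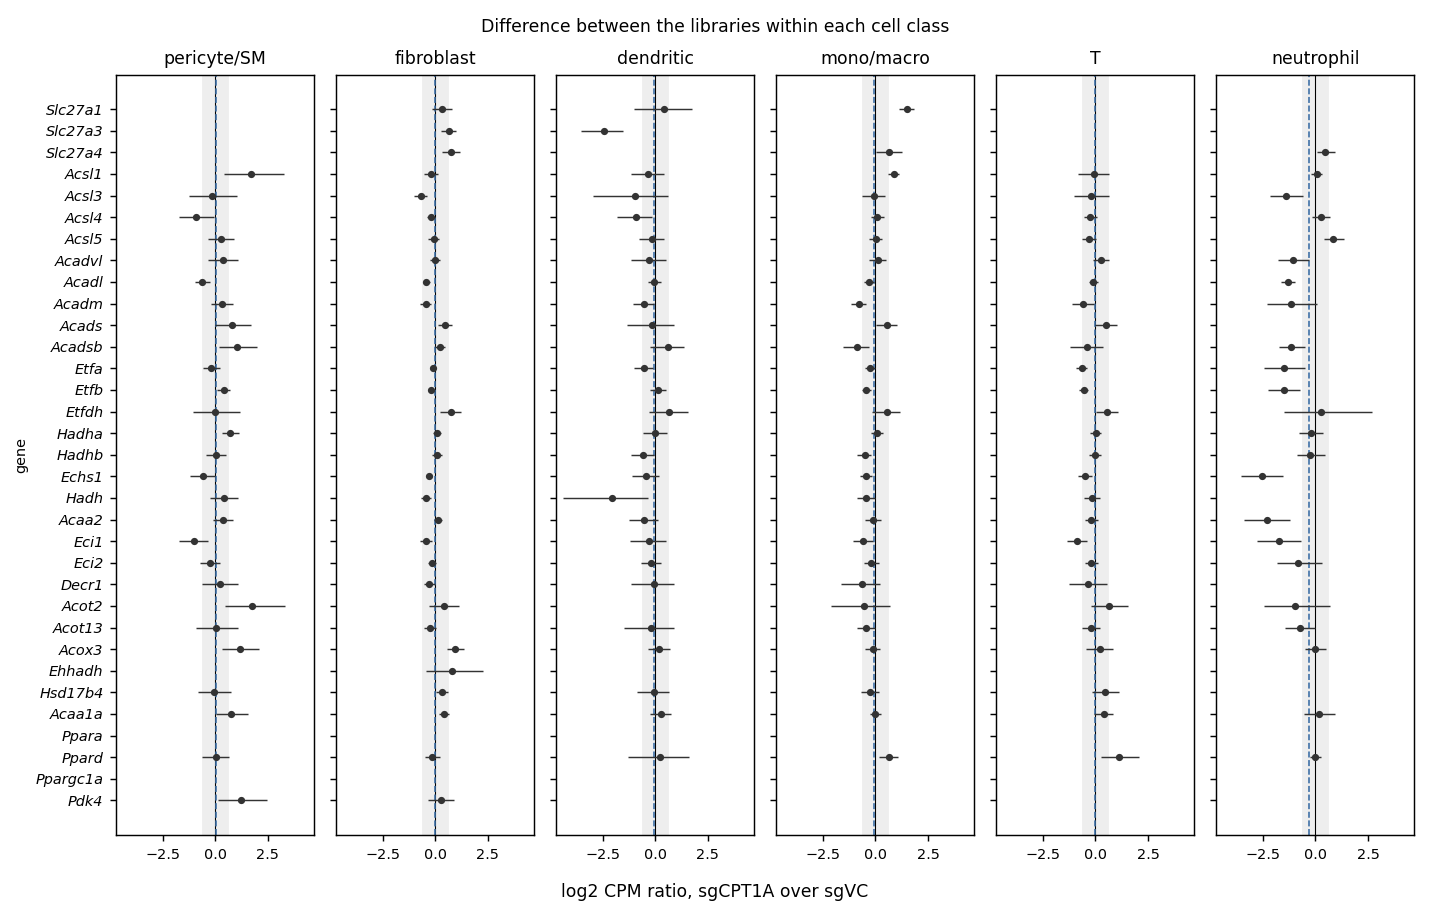
Log2 CPM ratio of sgCPT1A over sgVC for each member measured in each class, with 95% intervals. The grey band marks ratios under 1.5-fold and the dashed blue line the median of all measured genes; in neutrophil-like cells most mitochondrial enzymes lie left of both, with Acadl at −1.30.

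Pericyte or smooth muscle-like cells had the largest number of higher members, 8 of 27 measured (22.9% of all 8714 measured genes), with 4 lower (18.6%) and a median of 0.26 against 0.05. Hadha stood at 106 CPM (83.6 to 132) and 174 CPM (152 to 198), a ratio of 0.72 (0.34 to 1.11). Acadsb (20.3 and 41.4 CPM; 1.02, 0.17 to 1.96), Acox3 (20.3 and 45.3 CPM; 1.15, 0.32 to 2.08), Acaa1a (29.8 and 50.7 CPM; 0.77, 0.05 to 1.53) and Acads (23.1 and 39.8 CPM, an interval that includes 0) were higher on 15 to 22 sgVC UMIs. As a mean over cells the Acox3 ratio turned to −0.089. Acsl1, Acot2 and Pdk4 rest on 6, 6 and 9 sgVC UMIs. Acadl stood at 191 CPM (161 to 226) and 126 CPM (107 to 147), a ratio of −0.61 (−0.94 to −0.27), and Eci1 at 57.0 and 28.1 CPM (−1.02, −1.70 to −0.34). Acsl4 and Echs1 were the other lower members. These 4 were highest in the tumour-like cells of sgVC, Acadl with an interval that overlaps that of the pericyte or smooth muscle-like cells. Tumour/epithelial markers in the class summed to 321 CPM in sgVC (6 of 12 at 0) and 26.5 CPM in sgCPT1A (7 of 12 at 0). Free RNA was put at 15.5% and 2.28% of the class's UMIs. With it subtracted 9 members were higher (24.3% of all genes) and 1 lower (17.8%). The part of tumour cell and free RNA in these ratios was not tested.

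This class was mixed, and differently in the libraries. Endothelial markers, all 8 detected, summed to 2074 CPM in sgVC and 439 CPM in sgCPT1A, and fibroblast markers to 2453 CPM (2 of 8 at 0) and 11029 CPM (0 of 8 at 0). UMIs of at least 2 endothelial markers were found in 25 of 51 and 20 of 73 cells. Without those cells, a setting chosen after the data were seen, 3 of 23 measured members were higher (23.9% of 6824 genes) and 4 lower (15.5%). Their median was 0.04 against 0.08 for all genes. Acadl stood at a ratio of −0.76, Eci1 at −1.03 and Hadha at 0.53.

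**Figure D5:**
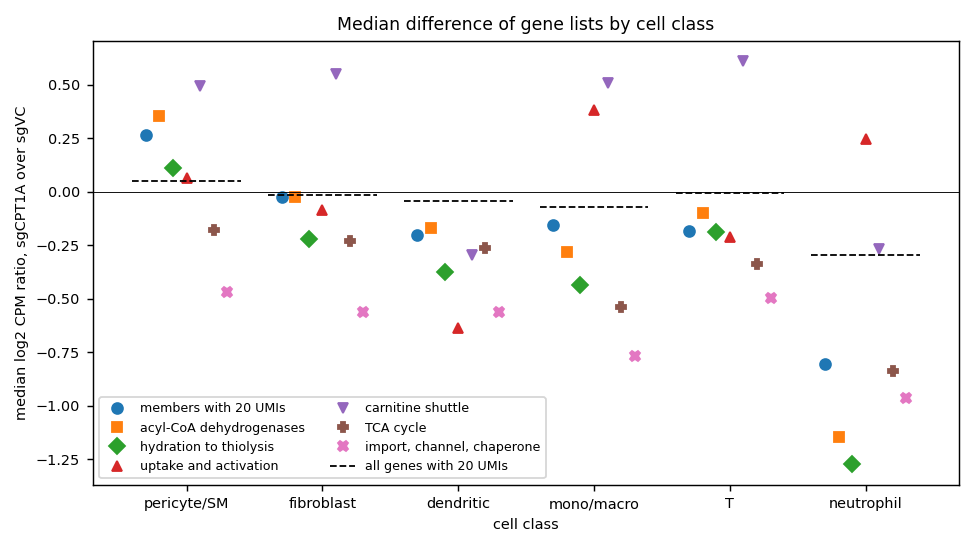
Median log2 ratio of sgCPT1A over sgVC of the members with at least 20 UMIs, of 3 of their role groups and of 3 other gene lists in each class; dashed lines give the median of all measured genes. The dehydrogenases and later steps lie lowest in neutrophil-like cells, at −1.15 and −1.27, and the import, channel and chaperone list lies below the line in all 6 classes.

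Side by side, no member passed 1.5-fold in the same direction in every compared class. Eci1 was lower in 4 of the 6, with ratios of −0.44 in fibroblast-like and −0.31 in dendritic-like cells, where it stayed under 1.5-fold. Acadsb and Slc27a3 took opposite directions in different classes. The mitochondrial import, channel and chaperone genes were lower in each class by their median, from −0.47 in pericyte or smooth muscle-like to −0.96 in neutrophil-like cells. The classes share both libraries, so these ratios are not independent of each other.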

How the data were processed

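The counts analysed were the deposited UMI counts (whole numbers for each gene in each barcode) of 2 libraries, made with Cell Ranger 7.1.0 per the file headers. The submitters' processing notes also name Seurat 4.1.0 and GRCm38. For the annotation release and for how cells were called, nothing is given in the sources used here. Barcodes under 200 genes or above 20% mitochondrial UMIs were dropped (9610 sgVC and 6743 sgCPT1A cells passed). Scrublet marked 291 sgVC cells (3.03%) as doublets, and these were removed. In sgCPT1A it marked 1 (0.0148%), which was taken as a failed call, and doublets were not removed. With the called doublets kept, 4 members were higher (16.1% of all genes) and 8 lower (34.9%) in monocyte/macrophage-like cells, with a median of −0.32 against −0.23. In fibroblast-like cells 5 were then higher (17.2%) and 4 lower (18.9%), and in dendritic-like cells 2 higher (16.4%) and 6 lower (23.7%).

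The 2 libraries were clustered jointly with scanpy 1.11.5 (10000 UMIs per cell, log scale, 2000 variable genes, 30 components, 15 neighbours, Leiden resolution 1). Of 18 marker lists, a cluster took the one with the largest share of markers, and 3 or more, that passed. A marker passed at 2 times the median cluster's level and in 10% of the cluster's cells. A name was to be withheld where another list had more of the cluster's leading genes. The same held for a shallow cluster with none of its own markers among them. UMIs were summed per class and library. The intervals were run on simulated Poisson counts, which hold no spread between cells, so that run cannot show how they fare with such spread. Coordinates come from GENCODE M21 and promoters from RefSeq. Full values are given for members with at least 50 UMIs in a class and a 1.5-fold ratio, or the highest level of their role; of other lists, for up to 4 genes per class (highest level, largest ratio), named where they fit. The other values named, and the clusters' leading genes, were picked after being seen. The members and lists were chosen with earlier results of these data known.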

Additional observations from a re-analysis of the deposited data

Results flagged for a closer look

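Acadsb, the branched-chain acyl-CoA dehydrogenase, differed between the libraries in opposite directions in different cells. Its log2 ratio of sgCPT1A over sgVC was −0.88 in monocyte/macrophage-like and −1.13 in neutrophil-like cells, but 1.02 in pericyte or smooth muscle-like cells, each with an interval that leaves out 0. The pericyte or smooth muscle-like value rests on 15 sgVC UMIs, and it is 2.70, on 2 and 36 UMIs, without the cells that carry endothelial markers.

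Slc27a3, a fatty acid transport protein, had a log2 ratio of −2.43 in dendritic-like and 0.63 in fibroblast-like cells. With 1 library per group, neither difference between classes was tested.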

How the results depend on the processing

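No paired analysis was possible because each group had 1 library. The report's counts of members past 1.5-fold were 4 in T-like, 6 in dendritic-like, 6 in fibroblast-like, 8 in monocyte/macrophage-like, 14 in neutrophil-like and 12 in pericyte or smooth muscle-like cells. With cells classed by their own markers they were 9 in T-like, 12 in fibroblast-like and 28 in neutrophil-like cells, and as a mean over cells 8 in T-like and 14 in dendritic-like cells. Own markers gave 15.6% of all measured genes higher and 24.4% lower in T-like, 25.4% and 26% in fibroblast-like and 21.5% and 63% in neutrophil-like cells. The mean over cells gave 14.3% and 19.2% in T-like and 16.8% and 24% in dendritic-like cells. With free RNA subtracted the T-like count was 8. With 1 cluster per class the count was 10 in T-like cells (16.2% of all genes higher and 16.3% lower). In neutrophil-like cells the count was then 5, of the 13 members measured in that cluster (9.41% and 29.7%). At Leiden resolution 0.5 it was 4 in monocyte/macrophage-like cells (16.8% and 19.8%). With at least 1 UMI it was 8 in T-like cells; with at least 100 UMIs it was 2 in T-like, 1 in dendritic-like, 3 in neutrophil-like and 3 in pericyte or smooth muscle-like cells. At 2-fold it was 1, 2, 0, 1 and 6 in T-like, dendritic-like, fibroblast-like, monocyte/macrophage-like and pericyte or smooth muscle-like cells, and without cells carrying endothelial markers 7 in the last. Genes of the other lists past 1.5-fold numbered 45, 47, 87 and 54 with at least 1 UMI in T-like, dendritic-like, neutrophil-like and pericyte or smooth muscle-like cells, against 28, 27, 48 and 29 at 20 UMIs. Shares of all genes were not counted at 1 UMI, at 100 UMIs or at 2-fold.

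Signs turned for Acadsb in dendritic-like (−0.21), Decr1 in monocyte/macrophage-like (0.082) and Acox3 in pericyte or smooth muscle-like cells (−0.089) as a mean over cells, and for Acsl5 in neutrophil-like cells with own markers (−0.40) and within cluster 0 (−0.0087). The cause was not tested. Of the 35 ratios given by rule, all 35 kept their direction and stayed within their 95% interval at Leiden resolution 2, with 500 genes per cell, with free RNA subtracted and with median scaling. With own markers 11 of 23 did so, 11 left their interval in the same direction and 1 turned. As a mean over cells 29 of 35 did so, 3 left it and 3 turned. With 1 cluster per class 30 of 34 did so, 3 left it and 1 turned. The fibroblast-like and pericyte or smooth muscle-like classes were 1 cluster each, so their 5 and 9 ratios could not change there. Both classes also gave the same counts as reported at Leiden resolution 2. With called doublets kept 33 of 35 did so and 2 left it. Classes left with too few cells were not run: dendritic-like at Leiden resolution 0.5 and with own markers, and pericyte or smooth muscle-like at 10% mitochondrial UMIs and with own markers.

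In the neutrophil-like class 23 of 33 members reached 20 UMIs, and in the dendritic-like and pericyte or smooth muscle-like classes 27 did. Summed UMIs were 2787450 in sgVC and 13700938 in sgCPT1A neutrophil-like cells. T-like cells, with 26 members measured, held 3874091 and 3525431. The part of depth in these numbers was not tested. No interval covers the spread between cells or between animals. With 1 tumour library per group, the guide cannot be told apart from any other difference between the 2 libraries.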

Other observations

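In fibroblast-like cells several genes around the pathway stood past 1.5-fold. Slc22a5, the plasma membrane carnitine transporter, had 2.33 CPM in sgVC against 9.44 CPM in sgCPT1A (log2 ratio 2.02, 1.22 to 2.93), and Cpt1c, the brain-type carnitine palmitoyltransferase, at 9.32 and 18.2 CPM (0.96, 0.53 to 1.41). Lpl, the lipoprotein lipase, stood at 176 and 337 CPM (0.94, 0.84 to 1.04). The fatty acid binding proteins Fabp5 (243 and 57.0 CPM; −2.10) and Fabp4 (91.5 and 29.5 CPM; −1.64) stood lower, as did Hilpda, the inhibitor of lipid droplet breakdown, at 90.5 and 40.1 CPM. In the same class adipocyte markers summed to 61.6 CPM in sgVC (2 of 6 at 0) and 0.403 CPM in sgCPT1A (4 of 6 at 0), pericyte markers to 258 and 87.2 CPM (0 of 8 at 0) and tumour/epithelial markers to 99.7 and 22.1 CPM (3 and 1 of 12 at 0). Their part in these values was not tested; Fabp4 stood at 9113 and 4694 CPM in pericyte or smooth muscle-like cells.

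Fabp5 took the opposite direction in monocyte/macrophage-like cells, at 1663 and 2307 CPM (0.47, 0.43 to 0.52), and was lower in T-like cells at 341 and 130 CPM (−1.39, −1.55 to −1.24). Dbi, the acyl-CoA binding protein, was lower in all 6 compared classes, from −0.43 in monocyte/macrophage-like to −1.20 in neutrophil-like cells. Differences between classes were not tested.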
